A study of Mus musculus with 20 samples.

Results

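The cytosolic ribosomal protein genes were followed in 20 RNA-seq libraries of the mouse preoptic area. This region of the hypothalamus is home to the neurons that make gonadotropin-releasing hormone (GnRH). Members were chosen by symbol alone: every row of the count table named Rpl or Rps with a number, a short letter suffix, or the stalk and laminin-receptor names (Rplp0 to Rplp2, Rpsa). The rule took 80 of 19269 gene symbols, 48 of the large subunit (Rpl) and 32 of the small subunit (Rps). Ribosomal proteins and ribosomal RNA together form the ribosome, and its proteins are needed in near-equal amounts. Most of their mRNAs begin with a 5′ terminal pyrimidine tract (TOP), a C followed by a run of C or T, through which their translation is set by mTOR signalling. In the brain, these mRNAs occur in every cell type and also in the processes of neurons.

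The samples came from translating ribosome affinity purification. There, GFP is fused to L10a, the protein encoded by Rpl10a, and an antibody to GFP brings down tagged ribosomes with the mRNA on them. GnRH neurons carry the tag in GnRH CRE x Floxed L10a-GFP mice, and each pool gave an immunoprecipitate (IP), a depleted supernatant, or both. All animals were female, either day 21 (young) or 70 to 150 days old and in diestrus (adult), and each pool held preoptic punches of 3 to 4 mice. An adult GFP-positive pool of the full cross gave 1 IP and 1 supernatant. Mice without tagged ribosomes made up 5 negative pools, each with an IP and a supernatant. Both adult negative pools were GnRH CRE only. Of the young ones, pools 1 and 2 came from Wild Type and pool 3 from Floxed L10a-GFP only mice, so age and genotype changed together among them. A further 4 pools of the full cross, 2 adult and 2 young, came from an earlier series (prior pools), and their supernatant RNA was present from a second and from a first sequencing set.

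Starts of 60 member genes were listed in RefSeq on GRCm38.p6, with 72 promoter windows. A pyrimidine run, defined as a C followed by at least 7 further C or T on the transcribed strand, lay within 50 bases either side of the start in 57 of the 72 windows (79.2%), against 9450 of 32851 windows of all genes (28.8%). The opposite strand was not searched, runs were free to overlap other motifs, and a match is a description of the sequence only. The 7 starts printed next belong to members that the results return to: Rps6 among the highest levels, Rpl15 as the steadiest member, Rpl28 and Rpl7a in the comparison of ages within the pull-down, Rpl39 and Rpl35 in the comparison of sequencing sets, and Rps27 as a row with few counts. Each line holds 30 bases in the direction of transcription with the annotated start in the middle, and capitals mark the pyrimidine run. They lie at chr4:86857353-86857382 (minus strand, Rps6), chr14:18270972-18271001 (minus, Rpl15), chr7:4792950-4792979 (plus, Rpl28), chr2:26910792-26910821 (plus, Rpl7a), chrX:37085208-37085237 (minus, Rpl39), chr2:39005117-39005146 (minus, Rpl35) and chr3:90213634-90213663 (minus, Rps27).
Rps6: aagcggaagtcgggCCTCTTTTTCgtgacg
Rpl15: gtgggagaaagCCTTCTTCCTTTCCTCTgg
Rpl28: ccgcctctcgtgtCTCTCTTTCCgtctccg
Rpl7a: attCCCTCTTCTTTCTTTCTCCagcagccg
Rpl39: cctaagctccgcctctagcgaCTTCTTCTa
Rpl35: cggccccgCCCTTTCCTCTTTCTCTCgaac
Rps27: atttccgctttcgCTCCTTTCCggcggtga

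The run began at base -1 from the start in Rps6, -2 in Rpl28 and Rps27, -4 in Rpl15, -7 in Rpl35 and -12 in Rpl7a, and at base 6 after it in Rpl39. Its length went from 8 bases in Rpl39 to 19 in Rpl7a. Of 11 windows of other mRNAs known for such tracts (translation factors and similar genes), 5 held a run (45.5%). No run was found in the windows of Rps28, Rpl23, Rps3 or Rplp0, which says only that these letters are not in those windows.

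Libraries held 27745296 to 50517581 counts, and a floor of 3 counts corresponded to 0.0594 to 0.108 CPM, the count scaled to a common library total. Gnrh1, the transcript that defines the tagged neurons, reached 1460 CPM in the single GFP-positive IP, while the adult negative IPs had 33.5 and 16.2 CPM. Markers of neurons, oligodendrocytes and astrocytes were detected in every library. CPM values given here are scaled across all 20 libraries by trimmed mean of M values (TMM).

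Ribosomal protein genes took the smallest share of counts in the young pull-downs and the largest values belonged to supernatants of the new (negative and GFP-positive) pools. They held 1.10% and 1.12% of counts in the adult negative IPs, against 1.58% and 1.72% in the adult negative supernatants. In young negative pools 1, 2 and 3 the IPs held 0.761%, 1.04% and 0.66%, against 1.57%, 1.59% and 1.31% in the supernatants. Every IP lay below every supernatant of these 5 pools, with means of 0.936% ± 0.211 in the IPs and 1.55% ± 0.149 in the supernatants (SD, n = 5 each). The GFP-positive pool gave 1.06% in its IP and 1.57% in its supernatant. Among the prior pools, the second set held 1.18%, 1.22%, 1.45% and 1.37%, against 0.892%, 0.965%, 1.09% and 1.07% in the first set of the same 4 RNAs. The sets did not overlap, and in both of them the young pools were the lower ones.

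**Figure D1:**
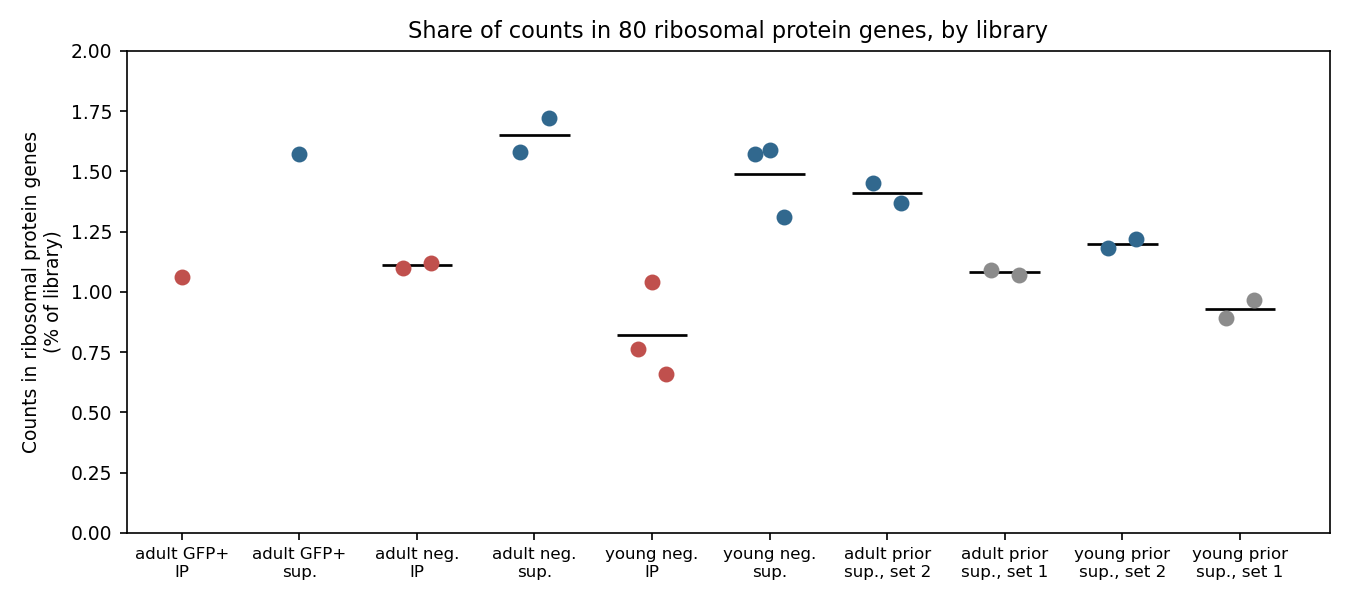
Share of each library's counts that fell in the 80 ribosomal protein genes, in percent, by group; points are libraries, horizontal lines are group means, red marks pull-downs (IP), blue supernatants of the second set and grey those of the first set. Pull-downs lay between 0.66% and 1.12%, below the supernatants of the same pools at 1.31% to 1.72%.

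Per kilobase of the shortest complete transcript, levels differed widely between members, although the ribosome holds most of its proteins in equal number. In the 10 supernatants of the second set, the highest were Rpl13 at 662 ± 129 CPM per kb, Rpl41 at 590 ± 109, Rpl19 at 534 ± 60.8, Rpl3 at 531 ± 79.8 and Rps6 at 508 ± 62.2 (SD, n = 10 each). Rpl41 encodes the shortest ribosomal protein, Rpl3 a protein close to the site of peptide bond formation, and Rps6 the substrate of the S6 kinases. Neighbours in this order lay within their own SDs of each other. The median was 250 CPM per kb over the 48 large-subunit genes and 219 over the 32 small-subunit genes.

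A few rows were low, and that of Rpl26 was nearly empty. Rpl26, which encodes a core protein of the large subunit, had 1 to 10 counts per library, or 0.163 CPM per kb. Rpl30 was at 3.29, Rps27 at 7.36 and Rpl34 at 16.9 CPM per kb. Rps20 stood at 23.7 CPM per kb because the transcript used for it has 3706 nt, and at 87.7 CPM its row was well filled. Of the 50-base stretches in the transcripts of the low rows, 71.3% (Rpl26), 76.4% (Rpl30), 98.6% (Rps27) and 50.6% (Rpl34) also occurred in other annotated genes, and 12 pseudogenes shared such stretches with Rpl26. Other members shared as much and were well counted, such as Rps28 at 75.7% and Rpl10 at 92.1%. Over all 80 members the rank correlation between shared stretches and level per kb was 0.2. Stretches were counted on both strands, so genes that overlap a member at its own place are included. Rpl35, at 95.1% shared, had 66.2% of its exon bases overlapped by genes on the other strand. The sources used here do not say how reads with several matching places were counted, and the part of such reads in these low rows was not tested.

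The tissue-restricted paralogs taken in by the symbol rule were also low. Rpl3l, the heart and skeletal muscle paralog of Rpl3, had 0 to 78 counts and was at 0 in young negative IP 1 and in both adult negative IPs. Rpl39l, a paralog of Rpl39 known from the testis, had 0 to 28 counts, and its 28 counts came from young negative IP 2. Rps27l, the paralog of Rps27 that p53 induces, was well expressed at 81.7 ± 11.7 CPM per kb (SD, n = 10). Its level stood above that of the row of Rps27 itself.

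Members varied among supernatants about as much as other genes. After removal of the age means, the SD of log2 CPM over the 10 second-set supernatants had a median of 0.195 over 75 members at a mean log2 CPM of at least 3, and of 0.188 over 10455 genes at that level. Rpl15 varied least, with an SD of 0.0563 and values of 269 to 288 CPM in adult and 277 to 312 CPM in young supernatants. Rpl10 (0.122) and Rpl7 (0.123) followed. Rpl13a, a protein with a further role in silencing inflammatory mRNAs, varied most (0.313), followed by Rpl34 (0.308) and Rps12 (0.299). These SDs still hold the difference between new and prior pools. Rpl13a was at 286 to 413 CPM in the new pools and at 229 to 290 CPM in the prior pools. Within each age its new and prior pools did not overlap.

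**Figure D2:**
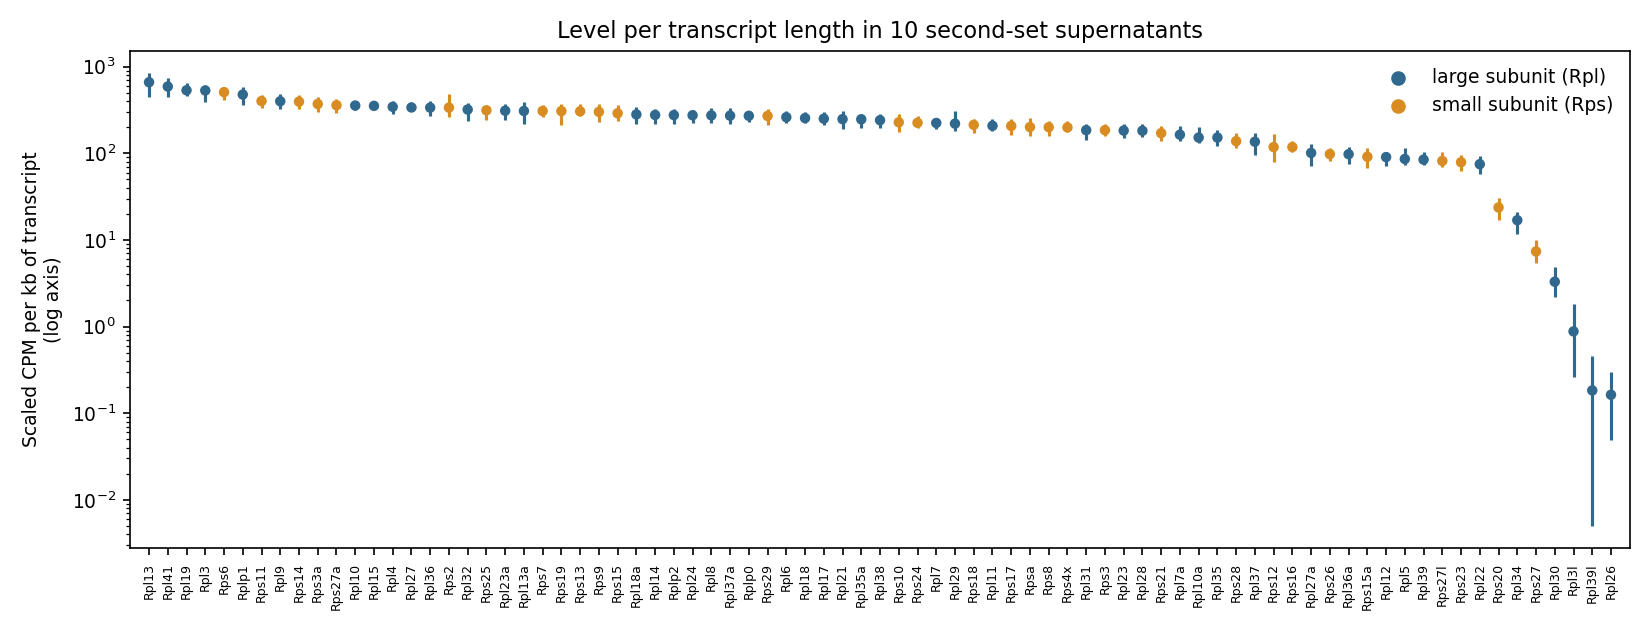
Scaled CPM per kb of transcript (log axis) of 79 of the 80 genes in the 10 second-set supernatants, ranked; points are means, lines run from the lowest to the highest library, and a lowest value of 0 (Rpl39l) is drawn at the foot of its line. The first 72 genes drawn lay between 74.9 (Rpl22) and 662 CPM per kb (Rpl13), and Rps20, Rpl34, Rps27, Rpl30, Rpl3l, Rpl39l and Rpl26 fell below it.

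The first comparison asked which RNA the pull-down recovers when no ribosome is tagged. Ribosomal protein mRNAs were depleted in this untagged pull-down. Of 78 members tested with edgeR, 73 were lower in the 5 negative IPs than in the 5 negative supernatants and 0 were higher, against a background of 16.2% lower and 15.8% higher over all 16361 genes tested. The median log2 fold change of the members was -0.91, or 0.532-fold, and that of all genes tested was -0.03. Both subunits moved alike, with 42 of 46 large-subunit genes lower (median -0.90) and 31 of 32 small-subunit genes lower (median -0.94). In 70 of the 78 members every IP lay below every supernatant, which held for 11.7% of all genes.

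Rps29, which encodes a small zinc-binding protein near the decoding site, was lowest of the 74 members at a mean log2 CPM of at least 3 (well-expressed members) and stood farther than 3 scaled median absolute deviations from their median. It was at 54.3 and 43.4 CPM in the adult IPs, against 110 and 123 CPM in the adult supernatants. In the young pools it was at 22.2, 43.1 and 25.3 CPM in the IPs, against 128, 128 and 101 CPM in the supernatants. Every IP value lay well below every supernatant value, and the young IPs 1 and 3 were the lowest. The log2 fold change was -1.65 (SE 0.20, edgeR adjusted p = 0.000171).

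Next came Rps28, Rps21 and Rpl23, the first pair small proteins of the small subunit and Rpl23 a large-subunit protein at the subunit interface. Rps28 averaged 16.0 ± 4.47 CPM in the IPs and 40.7 ± 5.73 CPM in the supernatants (SD, n = 5 each), a log2 fold change of -1.34 (SE 0.22, edgeR adjusted p = 0.00111). Rps21 averaged 31.2 ± 12.3 CPM in the IPs and 74.3 ± 8.82 CPM in the supernatants, a log2 fold change of -1.26 (SE 0.25, adjusted p = 0.00289). Rpl23 averaged 91.0 ± 21.8 CPM in the IPs and 209 ± 26.5 CPM in the supernatants, a log2 fold change of -1.21 (SE 0.13, adjusted p = 8.83e-05). In none of the 3 did the IPs overlap the supernatants.

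Rpl22 was the exception in the other direction. This gene encodes an RNA-binding protein at the outside of the large subunit. It was at 55.3 and 34.8 CPM in the adult IPs, against 34.7 and 44.2 CPM in the adult supernatants, and at 60.9, 33.3 and 38.4 CPM in the young IPs, against 38.5, 41.3 and 32.8 CPM in the young supernatants. The fractions overlapped at both ages, and pool 1 of each age held the high IP value. Its log2 fold change of 0.18 did not pass the test (SE 0.21, edgeR adjusted p = 0.568). It lay 1.09 above the median of the members on the log2 scale.

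Rpl5, Rpsa and Rpl10a were the least depleted of the members that passed. Rpl5, whose protein travels with Rpl11 and the 5S rRNA and binds Mdm2, had a log2 fold change of -0.44 (SE 0.12, edgeR adjusted p = 0.0203). Rpsa, also known as the laminin receptor, had -0.49 (SE 0.15, adjusted p = 0.0302), with adult IP 2 at 357 CPM inside the supernatant range of 294 to 414 CPM. Rpl10a was at 84.4 and 88.1 CPM in the adult IPs, against 113 and 119 CPM in the adult supernatants, and at 99.0, 125 and 76.0 CPM in the young IPs, against 164, 165 and 124 CPM in the young supernatants. Within each age the Rpl10a fractions did not overlap in the adult pools and did in the young ones, where IP 2 reached the level of supernatant 3. Its log2 fold change was -0.54 (SE 0.15, adjusted p = 0.0179). These 3 calls were lost when single libraries were left out. For Rpl10a the edgeR adjusted p was 0.0515 without adult supernatant 2 and 0.0567 without adult IP 1, and for Rpl5 it was 0.0669 and 0.0679 without the same libraries. For Rpsa it was 0.112 and 0.113 without them, and 0.057 and 0.0615 without young supernatant 1 or 2. Rpl5 and Rpsa also missed the threshold under scaling to library size alone (adjusted p = 0.0648 and 0.0849).

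The members that did not pass were Rpl22 and the low rows Rpl30 (-1.08, edgeR adjusted p = 0.214), Rpl34 (adjusted p = 0.0635), Rps27 (-0.37, adjusted p = 0.664) and Rpl3l (-3.72, SE 1.48, adjusted p = 0.0877, with 3 IPs at 0 counts, so that its fitted value depends on the prior count). Rpl22 was the member with a positive value, and the other 77 were negative. Members whose transcripts are mostly unique were also low in the IPs. The 8 well-expressed members with at most 25% of shared 50-base stretches had a median log2 fold change of -0.88, and the 25 with at least 75% had -0.86. Rps3, with 3.0% shared, was at -0.78 (SE 0.13, edgeR adjusted p = 0.00118).

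Transcript length moved with the pull-down across the table. For quartiles of length, the longest transcript of each gene was taken. Among other genes, the quartile with the shortest transcripts (73 to 1932 nt) had a median log2 fold change of -0.48 and the quartile with the longest had 0.54. The 71 members in the shortest quartile had a median of -0.92. Among 74 well-expressed members the rank correlation of the log2 fold change with the length of the shortest complete transcript was 0.483. This is a description across genes of the same libraries. The part of length in the depletion of the members was not tested.

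Related genes outside the symbol rule differed by list. Of the 6 ribosomal protein genes under other names or paralogs, 5 passed, among them Rpl22l1, the paralog of Rpl22, at -1.11 (SE 0.20, edgeR adjusted p = 0.00196) and Rpl36al at -1.05 (SE 0.17, adjusted p = 0.00105), while Gnb2l1, which encodes the ribosomal scaffold Rack1, was at -0.23 (SE 0.09, adjusted p = 0.0877). Of the 76 mitochondrial ribosomal protein genes, 60 were lower and 0 higher, with a median of -0.69. Of 16 other mRNAs with a pyrimidine tract, 10 were lower and 1 was higher, with a median of -0.47. Among these the elongation factor subunit Eef1b2 was at -0.97 (SE 0.14, adjusted p = 0.000415) and the poly(A)-binding protein Pabpc1, the higher one, at 0.61 (SE 0.12, adjusted p = 0.0033). Of 26 ribosome assembly factors, 6 were lower and 2 higher, with a median of -0.14. Over all genes tested, 16.2% were lower and 15.8% higher. The higher pair of assembly factors were Rrp12 at 1.01 (SE 0.15, adjusted p = 0.00073) and nucleolin (Ncl) at 0.55 (SE 0.10, adjusted p = 0.00224).

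Some cell type markers passed between the fractions. The lists are short, and over all genes tested 16.2% were lower and 15.8% higher. Of 5 immature neuron markers 3 were higher in the IPs (summed level 172 to 234 CPM in the IPs and 110 to 157 CPM in the supernatants, with 1 marker at 0 in some IP), and of 6 microglia markers 2 were lower (39.3 to 65.4 CPM in the IPs and 46.5 to 68.8 CPM in the supernatants). Of 6 neuron markers 1 was higher and 2 lower (4840 to 6060 CPM in the IPs and 5560 to 6390 CPM in the supernatants), of 8 preoptic neuron markers 2 were higher and 1 lower (1380 to 1860 CPM in the IPs and 1240 to 1390 CPM in the supernatants), and of 6 astrocyte markers 1 was higher (932 to 1830 CPM in the IPs and 1270 to 1410 CPM in the supernatants). Of 6 oligodendrocyte markers 0 passed. Their part in the result was not tested, and fewer cells of a type and less RNA per cell cannot be told apart in bulk tissue.

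**Figure D3:**
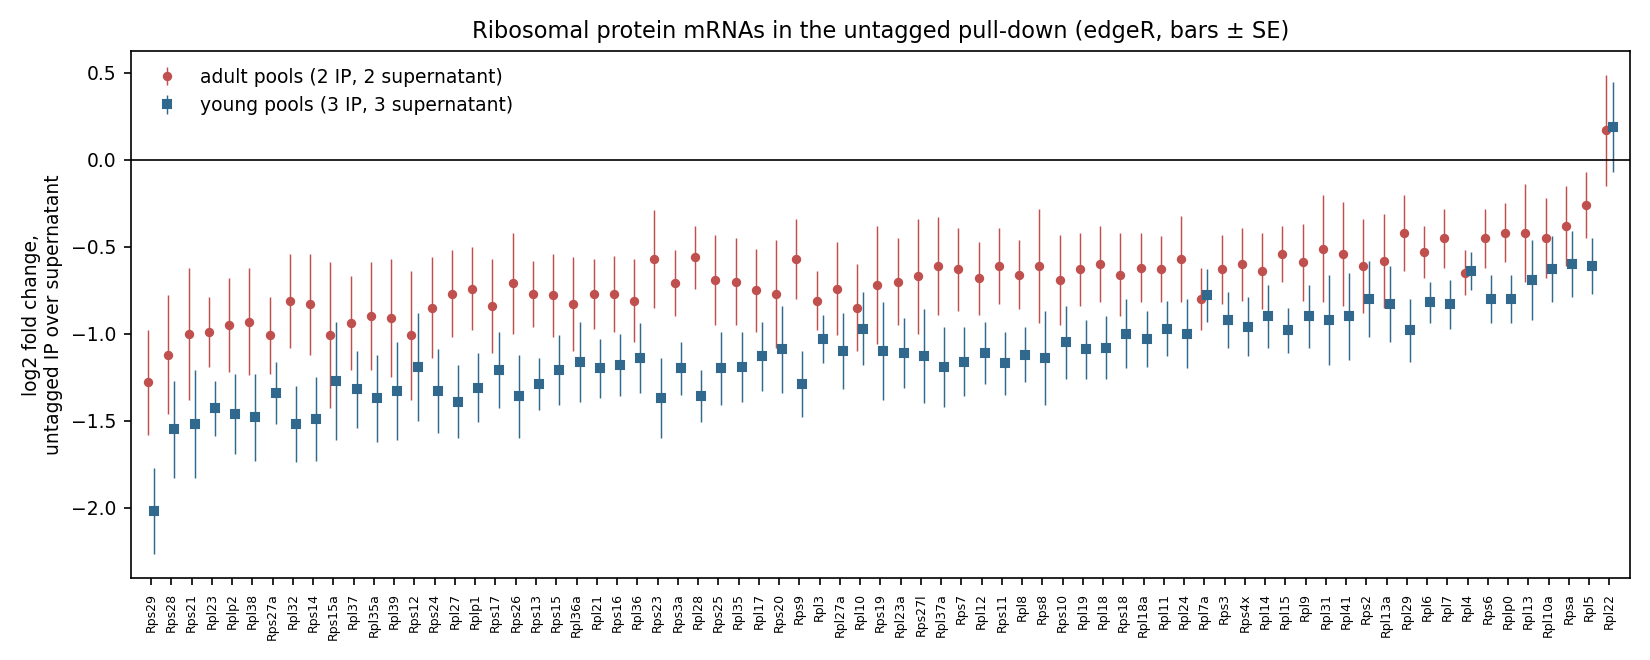
Log2 fold change of the untagged IP over the supernatant for 73 members at a mean log2 CPM of at least 3, ordered by the change over both ages; red points are adult pools, blue squares young pools, and bars are ± SE from edgeR. Rps29 stood lowest at both ages (-1.28 in adult, -2.02 in young pools), Rpl22 lay above 0, and most young values lay below the adult ones.

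Taken by age, the depletion had a median of -0.69 in the adult pools and -1.12 in the young pools. In the adult pools 10 of 78 members passed as lower and 0 as higher, against a background of 4.49% lower and 6.39% higher over all genes. With the pool as a block the adult count was 44, and it ran from 0 to 54 when single libraries were left out. For these other settings the share of all genes passing is not given here. In the young pools 73 of 78 passed as lower and 0 as higher, against a background of 14.1% lower and 13% higher. In the pools taken singly, the IP over supernatant ratio had a median log2 value over 74 members of -0.59 and -0.74 in the adult pools and -1.34, -0.80 and -1.13 in the young pools. The adult values lay above the young ones, with young pool 2 close to adult pool 2, while other genes had medians between -0.01 and 0.07 in these pools.

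The difference between the ages in this ratio was tested directly and no member passed. In edgeR, 0 of 78 members passed in either direction against a background of 0% of all genes, 3 members and 1068 of all 16361 genes had an unadjusted p under 0.05, and DESeq2 and limma voom also called 0. The median difference, adult minus young, was 0.41 over the members and 0.02 over all genes. Among the 74 well-expressed members Rpl28, a large-subunit protein, had the largest difference together with Rps23, a protein of the decoding site: 0.80 (SE 0.23, edgeR adjusted p = 0.683) for Rpl28 and 0.80 (SE 0.36, adjusted p = 0.765) for Rps23. At the other end of these 74, Rpl4, Rpl7a and Rpl22 had differences of -0.01, -0.02 and -0.02.

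Levels in the untagged IP itself did not pass between the ages either. In edgeR 0 members were called, against a background of 0.324% higher and 0.403% lower, while 41 of 78 members and 2897 of all 16361 genes had an unadjusted p under 0.05. DESeq2 called 9 higher and 1 lower and limma voom 0. The median log2 fold change, adult over young, was 0.47 over the members and 0 over all genes. Without young IP 2, edgeR called 27 members higher. The share of all genes passing in these other fits is not given here. Such counts are not read as a result about the members.

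Among the well-expressed members Rps23 had the largest difference, at 65.9 and 51.5 CPM in the adult IPs, against 22.3, 40.2 and 26.8 CPM in the young IPs. The ages did not overlap, and young IP 2 was the highest of its group. The log2 fold change was 1.00 (SE 0.25, edgeR adjusted p = 0.0979). Rpl28 followed the same order, at 109 and 96.3 CPM in the adult IPs, against 57.6, 73.8 and 57.2 CPM in the young IPs, with a log2 fold change of 0.73 (SE 0.16, adjusted p = 0.0713).

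Rpl10a, Rpl7a and Rps2 stood apart from the other well-expressed members in this comparison, each farther than 3 scaled median absolute deviations below their median. Rpl10a had a log2 fold change of -0.19 (SE 0.21, edgeR adjusted p = 0.704), Rpl7a, a large-subunit protein, also -0.19 (SE 0.16, adjusted p = 0.608), and Rps2, a protein at the mRNA entry site, -0.08 (SE 0.25, adjusted p = 0.921). Rpl7a was at 81.3 and 96.7 CPM in the adult IPs, against 97.2, 111 and 101 CPM in the young IPs. For Rpl7a every adult IP was lower, while for Rpl10a both adult values lay inside the young range of 76.0 to 125 CPM.

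The pull-down of tagged ribosomes was compared with the untagged one to ask whether the tag changed the yield of these mRNAs. Ribosomal protein mRNAs took 1.06% of counts in the GFP-positive IP, near the 1.10% and 1.12% of the adult negative IPs. No member of 79 tested passed in edgeR, DESeq2 or limma voom, against a background of 0.00603% higher and 0% lower in edgeR, and 1 member, Rpl6, had an unadjusted p under 0.05. The median log2 fold change was -0.01. With 1 tagged library, its variation was taken from the spread of the negative pools.

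Rpl10a stood at 91.3 CPM in the tagged IP and at 84.4 and 88.1 CPM in the adult negative IPs. The tagged library was the highest of the 3 by a small margin, with a log2 fold change of 0.12 (SE 0.33, edgeR adjusted p = 1). Rpl6, a large-subunit protein, stood at 341 CPM in the tagged IP and at 254 and 247 CPM in the adult negative IPs, a log2 fold change of 0.49 (SE 0.20, adjusted p = 0.938). Among the 74 well-expressed members the lowest were Rpl22 at -0.55 (SE 0.49, adjusted p = 0.957) and Rpl13a at -0.50 (SE 0.37, adjusted p = 0.938). Against its own supernatant the GFP-positive IP had a median log2 ratio of -0.68 over 74 members, between the values of the adult negative pools. In that pool Rps29 was at -1.25, Rpl10a at -0.32, Rpl22 at -0.36 and Rpl5 at 0.10, with no replicate.

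**Figure D4:**
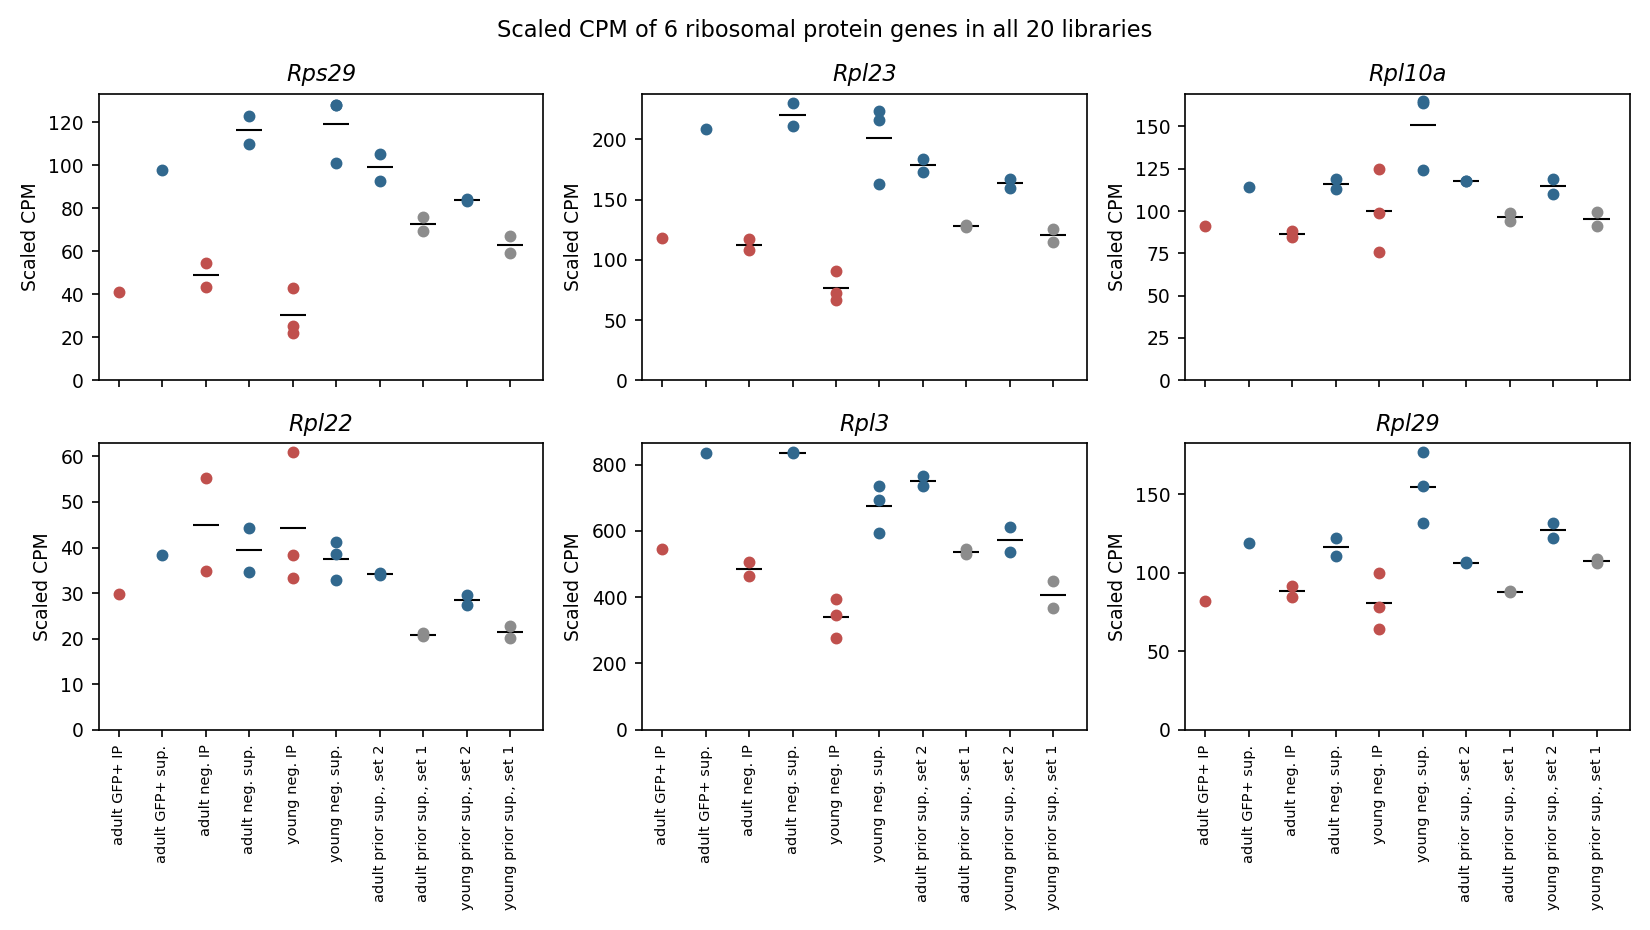
Scaled CPM of Rps29, Rpl23, Rpl10a, Rpl22, Rpl3 and Rpl29 in all 20 libraries by group; points are libraries, lines are means of groups with more than 1 library, red marks IPs, blue second-set and grey first-set supernatants. Rps29 and Rpl23 were low in every IP, Rpl22 was not, and Rpl29 was higher in young than in adult supernatants.

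The supernatants of the second set, 5 adult and 5 young pools with the pool origin as a term, addressed age in the preoptic area at large. In the new pools genotype changed together with age, and their parts cannot be told apart. Only the prior pools were of the same genotype, the full cross, at both ages. Few members differed. In edgeR 5 of 78 were higher and 1 was lower in adult supernatants, against a background of 4.2% higher and 5.22% lower, and the median log2 fold change was 0.10 over the members and 0.01 over all genes. The members' shares were near the background.

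Rpl3 was the member with the lowest p. It was at 835, 834, 837, 766 and 734 CPM in the adult supernatants, against 734, 693, 595, 535 and 612 CPM in the young ones. The highest young library reached only the lowest adult one. The log2 fold change was 0.34 (SE 0.07, edgeR adjusted p = 0.008), and the call held when any single library was left out. Within the new pools it was 0.33 (SE 0.09, adjusted p = 0.0806) and within the prior pools 0.38 (SE 0.11, adjusted p = 0.302).

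Rpl29 went against the others. It encodes a large-subunit protein also known for binding heparin and was at 119, 111, 122, 106 and 107 CPM in the adult supernatants, against 155, 177, 132, 132 and 122 CPM in the young ones. It was the single member without overlap between the ages in this comparison, a separation found in this direction for 3.65% of all genes, while 0 members and 2.61% of all genes were separated the other way, and the closest adult and young values were both 122 CPM when rounded. The log2 fold change was -0.34 (SE 0.08, edgeR adjusted p = 0.0185). It was -0.38 within the new pools (SE 0.11, adjusted p = 0.095) and -0.26 within the prior pools (SE 0.10, adjusted p = 0.425), and the call was lost without young negative supernatant 2 (adjusted p = 0.0506) or adult negative supernatant 1 (adjusted p = 0.0634).

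The other calls were Rpl37 at 0.34 (SE 0.10, edgeR adjusted p = 0.0481), Rps19, the gene most often mutated in human Diamond-Blackfan anaemia, at 0.32 (SE 0.09, adjusted p = 0.0415), Rpl14 at 0.27 (SE 0.07, adjusted p = 0.0351) and Rpl4 at 0.23 (SE 0.06, adjusted p = 0.0203). Rpl14 and Rpl4 are named because they passed. Of 10 fits that each left out 1 library, Rpl4 passed in 8, Rps19 and Rpl14 in 2 each and Rpl37 in 1. The count of 5 higher became 7 without young negative supernatant 1, 3 without young negative supernatant 3, 1 without adult negative supernatant 1 and 2 without any of the other 7 libraries. No member passed within the new pools or within the prior pools alone.

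Rpl10a had a log2 fold change of -0.22 with age in the supernatants (SE 0.10, edgeR adjusted p = 0.18). Its adult values were close together, between 113 and 119 CPM, while the young ones spread from 110 to 165 CPM. The high values, 164 and 165 CPM, were those of young negative pools 1 and 2, both Wild Type. Young negative pool 3, Floxed L10a-GFP only, was at 124 CPM, and the young prior pools were at 119 and 110 CPM. Rps27l had -0.23 (SE 0.09, adjusted p = 0.148) and Rps29, so low in the pull-down, had 0.03 (SE 0.10, adjusted p = 0.883).

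Related lists and markers stand against the background of 5.22% lower and 4.2% higher over all genes. Of 76 mitochondrial ribosomal protein genes, 9 were lower in adult supernatants and 0 higher, for example Mrps35 at -0.41 (SE 0.09, edgeR adjusted p = 0.0181). Of 16 other mRNAs with a pyrimidine tract, Eef1g was higher (0.26, SE 0.08, adjusted p = 0.0464) and Pabpc1 lower (-0.31, SE 0.07, adjusted p = 0.0127). Of 6 oligodendrocyte markers 3 were lower in adult supernatants, with a summed level of 2380 to 5120 CPM in adult and 4310 to 6670 CPM in young supernatants. Of 5 immature neuron markers 2 were lower, with 110 to 118 CPM in adult and 136 to 168 CPM in young supernatants. Both tested blood markers were lower as well, at 1.37 to 7.78 CPM for the 4 blood genes in adult and 6.34 to 21.1 CPM in young supernatants, with 2 of the 4 at 0 in some adult library. Of 6 neuron markers 1 was higher and 2 lower (5560 to 7070 CPM in adult and 6030 to 7110 CPM in young supernatants), of 6 astrocyte markers 1 was higher (1060 to 1410 CPM in adult and 1100 to 1320 CPM in young supernatants), and of 6 microglia markers 1 was higher (32.7 to 68.8 CPM in adult and 27.6 to 58.8 CPM in young supernatants). The part of these cells in the values of the members was not tested.

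The prior pools, read in both sets, showed how far the same RNA can differ between sequencing sets. Ribosomal protein mRNAs were higher in the second set. In edgeR, with the pool as a term, 69 of 78 members were higher and 0 lower in the second set than in the first, against a background of 15% higher and 16.1% lower. The median log2 fold change was 0.43 over the members and 0 over all genes, and it was 0.41, 0.39, 0.49 and 0.42 in the 4 pools taken singly. In 54 of 78 members every second-set library lay above every first-set library, which held for 9.31% of all genes. The reverse held for 0 members and for 6.4% of all genes. How the preparation of the sets differed is not given in the labels.

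Of the small-subunit genes 31 of 32 were higher (median 0.46) and of the large-subunit genes 38 of 46 (median 0.37), a contrast that was not tested. Rpl39, a protein at the exit of the peptide tunnel, was at 46.8, 45.0, 50.5 and 49.3 CPM in the second set, against 29.6, 29.0, 27.2 and 30.1 CPM in the first. The sets were far apart and each was tight. The log2 fold change was 0.71 (SE 0.08, edgeR adjusted p = 5.24e-06). Rps28 (0.67, SE 0.09, adjusted p = 2.56e-05), Rpl7 (0.67, SE 0.05, adjusted p = 1.21e-07) and Rpl37a (0.66, SE 0.05, adjusted p = 3.81e-07) followed.

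Some well-counted members differed little between the sets. Rpl13, the member with the highest level per kb, was at 353, 383, 491 and 464 CPM in the second set, against 331, 379, 461 and 433 CPM in the first. Each pool kept its level and its place in the order. The log2 fold change was 0.06 (SE 0.04, edgeR adjusted p = 0.249), and Rpl35 (0.08, SE 0.05, adjusted p = 0.278), Rpl6 (0.10, SE 0.04, adjusted p = 0.0758) and Rpl13a (0.11, SE 0.05, adjusted p = 0.107) did not pass either. Rpl10a was at 119, 110, 118 and 118 CPM in the second set, against 91.2, 99.4, 93.9 and 98.6 CPM in the first, without overlap and with a log2 fold change of 0.26 (SE 0.05, adjusted p = 0.00144). Rpl15, the steadiest member within the second set, was nevertheless at 278 ± 6.64 CPM in the second set and 203 ± 5.37 CPM in the first (SD, n = 4 each).

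Transcript length was weakly related to this difference. The rank correlation with the length of the shortest complete transcript was -0.138 over 74 members. Members with few or many shared stretches both had a median of 0.45. Of the 16 other mRNAs with a pyrimidine tract, 13 were higher and 1 lower, Eef1a1 reaching 0.72 (SE 0.03, edgeR adjusted p = 1.77e-09) and Eef1d being the lower one at -0.21 (SE 0.05, adjusted p = 0.00728). Of 76 mitochondrial ribosomal protein genes 25 were higher and 3 lower, and of 26 assembly factors 5 were higher and 7 lower. Over all genes tested, 15% were higher and 16.1% lower. Of 6 oligodendrocyte markers 4 were lower and 1 higher, with a summed level of 2380 to 4710 CPM in the second set and 2600 to 5110 CPM in the first. Of 6 astrocyte markers 3 were lower, with 1060 to 1180 CPM in the second set and 1180 to 1350 CPM in the first. Of 6 neuron markers 3 were higher and 1 lower (6110 to 7110 CPM in the second set and 5930 to 6550 CPM in the first), of 8 preoptic neuron markers 3 were higher and 2 lower (1570 to 2010 CPM in the second set and 1440 to 1810 CPM in the first), and of 5 immature neuron markers 2 were higher and 1 lower (115 to 168 CPM in the second set and 101 to 166 CPM in the first). Their part in the values of the members was not tested.

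**Figure D5:**
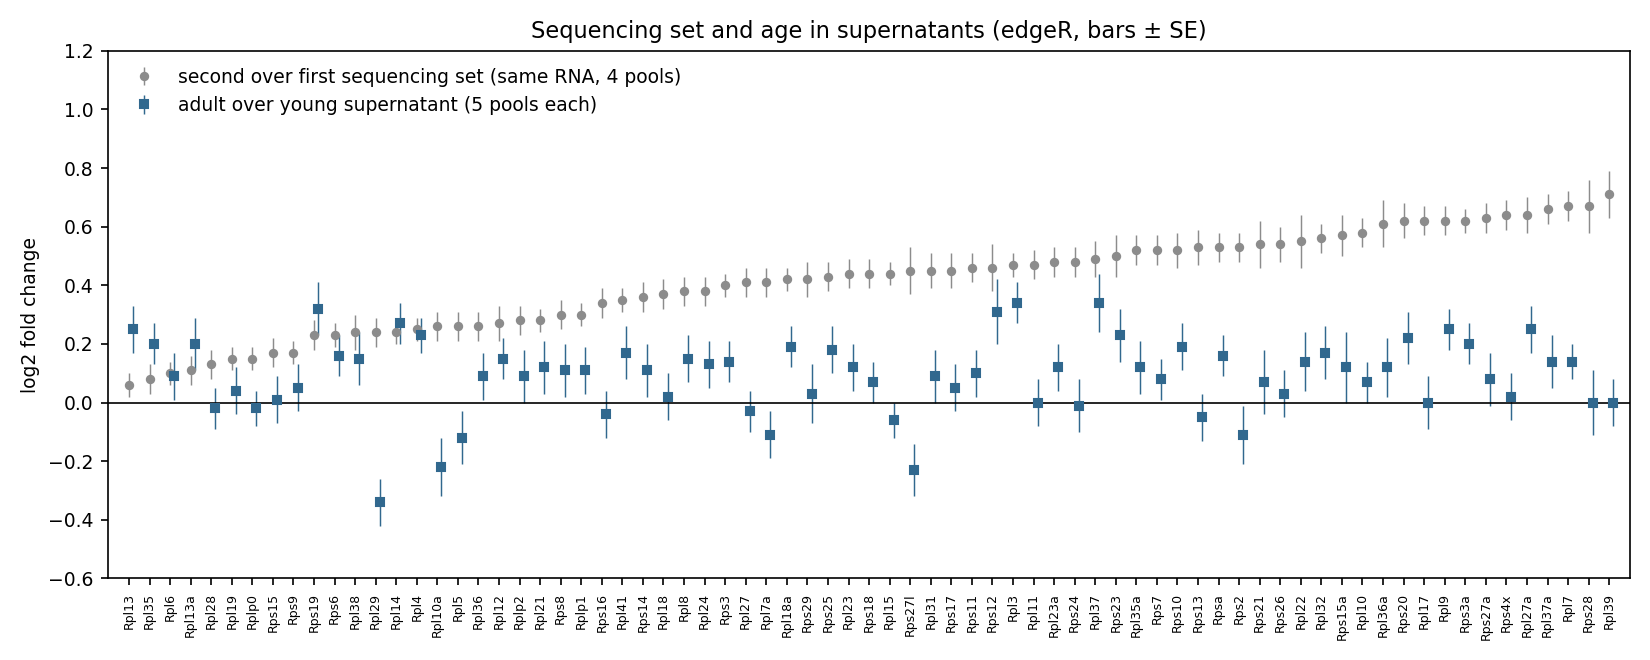
Log2 fold changes in supernatants for 73 members at a mean log2 CPM of at least 3, ordered by the difference between sequencing sets; grey points are the second over the first set of the same 4 pools, blue squares adult over young supernatants (5 pools each), bars are ± SE from edgeR. The grey points ran from 0.06 (Rpl13) to 0.71 (Rpl39), while the blue squares stayed between -0.34 (Rpl29) and 0.34 (Rpl3).

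Across the groups, mean Rpl10a levels ran from 151 ± 23.7 CPM in young negative supernatants (SD, n = 3), over 118 ± 0.135 in adult and 114 ± 5.85 in young prior supernatants of the second set and 116 ± 4.22 in adult negative supernatants (n = 2 each), to 86.2 ± 2.60 CPM in adult negative IPs (n = 2). Between lay the young negative IPs at 100 ± 24.4 CPM (n = 3) and the first-set prior supernatants at 96.2 ± 3.28 (adult) and 95.3 ± 5.76 CPM (young, n = 2 each). In this order of means, the young negative supernatants lay above the next group and the adult negative IPs below the first-set supernatants, both without overlap. The ranges of the other neighbouring groups overlapped. The young negative IPs spread from 76.0 to 125 CPM, and young IP 2 at 125 CPM lay above young supernatant 3 at 124 CPM. The GFP-positive pool had 91.3 CPM in its IP, above both adult negative IPs, and 114 CPM in its supernatant, between the adult negative supernatants. Of the Rpl10a sequence, 77.7% of 50-base stretches also occur in other annotated genes, and whether reads of the tagged copy fell in its row was not tested. The gene lies on the plus strand at chr17:28328471-28331033 (GRCm38, GENCODE M21), with 6 exons in the transcript used.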

How the data were processed

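Preoptic RNA of 20 libraries was analysed from a deposited table of whole-number read counts, made by the authors on build mm10. Per the submitters' processing notes, the tools named were HTSeq 0.6.1, TopHat2 2.0.13 with Bowtie2 2.2.1, Cuffdiff 2.1.1 and Cufflinks, DESeq2 1.14.1 and FastQC 0.11.3. The labels leave out the strand setting, the annotation and the treatment of reads with several matching places. SMARTer v4 amplified the polyA RNA, per the labels' protocols. Sample titles gave the groups, although the series text names the GFP-positive supernatant differently in places and descriptions number the adult negative supernatants otherwise.

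The main test was edgeR 4.0.16 (R 4.3.3), quasi-likelihood, with TMM scaling, filterByExpr (minimum count 10) and Benjamini-Hochberg adjustment over all genes tested, at 0.05. The pull-down and age-in-pull-down contrasts share 10 negative libraries. Alternatives were DESeq2 1.42.0, limma 3.58.1 (voom), other scalings, no filter, a replicate block, other sample sets and leaving out each library. Named genes were Rpl10a, Rps29, the paralogs ending in l, the 4 highest and 4 lowest members per comparison, any called against the majority, members beyond 3 scaled median absolute deviations, the 3 steadiest and most variable, and the extreme called genes of related lists. Members and lists were chosen with earlier results of these data known. IP and supernatant of the same number were matched as 1 pool by their titles. Over 10590 genes their deviations from group means correlated at 0.292, 0.195 and 0.453 (young) and 0.207 and 0.207 (adult). Unmatched young numbers gave values between -0.398 and 0.138. Deviations from a group mean cancel within the group, so positive matched values push the unmatched ones down. With 2 adult libraries per fraction, the 2 adult values are equal by construction. Code was tested on simulated data. Transcript lengths, coordinates and shared 50-base stretches came from GENCODE M21 on GRCm38, where all 80 members matched, and 98.2% of all genes had a length. Detection floors cover counting error only. Log2 ratios within a pool used a pseudocount of 0.5 CPM. The values of 1 member are not reported or drawn singly here, although it stays in all fits, counts and medians.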

Additional observations from a re-analysis of the deposited data

Results flagged for a closer look

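Among 70 sets of 4 or 5 values, of named members or of the share of counts, 3 held a library far from the rest, where chance gives about 1 in 20. Rps27l was at 44.3 CPM in adult negative supernatant 2, above the 34.5 to 36.8 CPM of the other 4 adult supernatants of the second set. Rpl23 was at 163 CPM in young negative supernatant 3, the Floxed L10a-GFP only pool, below the 211 to 230 CPM of the other 4 negative supernatants. Rpl10a was at 110 CPM in the second-set supernatant of young prior pool 2, below the 118 to 119 CPM of the other 3.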

How the results depend on the processing

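The depletion of members in the untagged IP (68 to 74 lower when 1 library was left out, 63 to 73 in the young pools) and their rise in the second set (66 to 69) kept direction and size under every scaling, tool and filter run. Scaling to library size alone moved the median of all genes in the untagged IP to 0.09, against -0.03, and that of the members to -0.79, with 70 lower. The adult count of 10 lower was 44 with the replicate block and 44 with DESeq2, 34 with adult libraries only, and 0 to 54 when single libraries were left out (54 without young IP 2, 0 without either adult supernatant or adult IP 1, 3 without adult IP 2, 32 and 18 without young IP 3 and 1). Because IP and supernatant were matched by number, that blocked count stands beside the result. The block changed no other count of members by over 1.5 times. For age within the IP, DESeq2 gave 9 higher and 1 lower, and leaving out single libraries 0 to 27 higher. For age in supernatants, the count of 5 higher was 13 with library size alone (1 lower), 2 without the GFP-positive supernatant, 0 in the new or prior pools alone, and 1 to 7 without single libraries, while the 1 lower became 0 in either pool origin alone and 0 to 1 without single libraries. The share of counts averaged 0.89% to 1.01% in the negative IPs and 1.51% to 1.62% in the negative supernatants without single libraries, and 1.77% in the supernatants once the 50 most abundant genes were left out of the total. No named member that passed in the main fit or in the alternative changed sign between them. Members that did not pass could change sign. For age in supernatants, the log2 fold change of Rpl10a was -0.37 (SE 0.11) in the new pools alone and 0.03 (SE 0.1) in the prior pools alone. That of Rps29 was -0.09 (SE 0.12) in the new pools and 0.24 (SE 0.11) in the prior pools. Other causes of these shifts were not tested. Member counts in the alternative fits are given without the share of all genes passing there. They show only how far the member counts moved. With 2 adult negative pools and 1 GFP-positive pool, small differences there were not detectable, and rows under about 10 counts, such as Rpl26 and Rpl39l, carry no comparison.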
